A study of Homo sapiens with 8 samples.

Results

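The genes described are the kinases that drive cells out of the G1 phase, their cyclins and inhibitors, the retinoblastoma gene, and the cyclin C kinase pair of Mediator. The list names 10 genes: CDK6, CDK4, CCND1, CCND2, CCND3, CCNC, CDKN1B, CDKN2C, RB1 and CDK8. Of these, 9 were measured among 15971 genes in all, by 17 of 33446 probes. CDKN2C, which encodes an inhibitor of CDK4 and CDK6, had no probe listed and was not analysed here. For each gene the brightest probe by mean over the arrays stands first, and its other probes are given beside it. The list was drawn up around CDK6 and CCNC, which were chosen by their small p-values between miR-148b and control on these same arrays, and the other members were added for their function. The difference between miR-148b and control is therefore described for the members, with no p-value for any of them.

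D-type cyclins bind CDK4 or CDK6, and the active kinases phosphorylate the RB1 protein, which then releases E2F transcription factors that switch on genes of DNA replication. INK4 proteins such as p18, the product of CDKN2C, block CDK4 and CDK6 directly, whereas p27, the product of CDKN1B, mainly holds back CDK2 complexes. Cyclin C and CDK8 work elsewhere: they form the kinase module of Mediator, the complex that links transcription factors to RNA polymerase II.

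The cells were MDA-MB-231, a human breast cancer line with mesenchymal features. The 4 miR-148b arrays came from cells transfected with a miR-148b precursor at 75 nM, the 4 control arrays from cells given a negative control, and both groups were taken after 48 h. Both groups thus went through transfection, and no untransfected cells are among the arrays. The labels call the 4 arrays of a group biological replicates and say no more about their source, so the spread between them may be partly technical. The precursor raises the microRNA for a short time in a single line, which limits it as a model. Vimentin (VIM), a marker of mesenchymal cells, read at least 111883 on every array, while the oestrogen receptor gene ESR1 stayed between 54.6 and 92.5. The mesenchymal markers SPARC and ZEB1 were dim, with means of 173 and 146, and the luminal keratin gene KRT19 was bright, with a mean of 74062.

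The titles also give each array a code number and, on some, a plus mark, neither of which the labels explain. The 3 arrays of code 1 are replicate 1 of both groups and replicate 2 of miR-148b. Replicate 4 of both groups has code 3, and the other arrays have code 2. Control replicate 3 and miR-148b replicates 2 and 3 carry the plus mark. Replicates 1, 3 and 4 therefore match in code and mark between the groups, and replicate 2 does not. Array medians lay between 370.2 and 404, and with 8 arrays the precision of each value is limited.

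The transfected precursor yields a strand whose seed, the stretch that pairs with messages, is shared by 3 mature microRNAs of the RefSeq table (GRCh38.p14). They are shown because the seed sets which messages can be bound directly. Capitals mark the seed, bases 2 to 8, and each sequence runs 5′ to 3′.
hsa-miR-148b-3p: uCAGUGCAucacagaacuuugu
hsa-miR-148a-3p: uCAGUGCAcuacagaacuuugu
hsa-miR-152-3p: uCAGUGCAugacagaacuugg
The strand of miR-148b lies at chr12:54337278-54337299 on the plus strand. A message site paired with the whole seed reads TGCACTG. Message sequences of the members were not used here, so no site was searched.

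CDK6, CCNC, RB1 and CDK8 read higher with miR-148b than in control, by 1.77, 1.67, 1.38 and 1.39-fold in the mean of log2 intensities. CDK4, CCND1 and CDKN1B differed little between the groups, at 0.965, 1.07 and 0.945-fold. CCND2 and CCND3 were at 1.19 and 0.839-fold, inside a wide spread. In all, 6 of the 9 measured genes lay above control and 3 below, with a median log2 difference of 0.25. Over 15971 genes the median was -0.03, and 46.5% lay above control.

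CDK6, the kinase partner of D-type cyclins, read 12437, 8849.6, 10846 and 8534 on control replicates 1 to 4 at its brighter probe. On miR-148b replicates 1 to 4 it read 20249, 20208, 15991 and 15154. All 4 miR-148b arrays lay above all 4 control arrays, with the lowest miR-148b array clear of the highest control array. The group means were 10167 ± 1827 and 17900.4 ± 2709.9 (SD, n = 4 each), which on the log2 scale differed by 0.82 (SE 0.19). Within each group the code 1 arrays were the highest.

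The dimmer CDK6 probe showed a smaller difference. It read 519, 480.2, 266 and 423 on the control arrays and 538, 509.6, 437 and 669 on the miR-148b arrays. The groups overlapped, and control replicate 3 was the lowest array of all. The log2 difference was 0.38 (SE 0.25), against 0.82 at the brighter probe. The probes also differed in the order of the arrays, since the bright probe was highest on code 1 and the dim probe on miR-148b replicate 4.

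CDK4, the close relative of CDK6 that binds the same cyclins, read 10270.5, 11925, 8603 and 10306 in control. With miR-148b it read 9327, 9866, 10071 and 10140.2. The miR-148b arrays all fell inside the range of the control arrays. Its log2 difference of -0.05 (SE 0.15) was smaller than its error, and it ran from -0.13 without control replicate 3 to 0.02 without control replicate 2.

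CCND1, the gene of cyclin D1, was the steadiest of the D-type cyclins, with its highest array 1.21 times its lowest. It read 8263, 8241, 7738 and 8162 in control and 8555, 9351, 8604 and 8263 with miR-148b. The groups did not overlap, but only narrowly, as the highest control array read 8262.95 and the lowest miR-148b array 8263.33. The log2 difference was 0.10 (SE 0.12), and the other probes were at 0.12 and 0.15 with overlapping groups.

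Cyclin D2, encoded by CCND2, was dim at each of its 3 probes, with means below that of most probes. Its brightest probe read 67.0, 65.2, 162 and 56.1 in control and 86.0, 128, 148 and 48.5 with miR-148b. The 3 highest arrays were the 3 with a plus mark, in both groups. The probes of CCND2 gave log2 differences of 0.25 (SE 0.44), 0.66 (SE 0.41) and -0.37 (SE 0.26), which do not share a sign. Leaving out single arrays moved the difference at the brightest probe from 0.03 without miR-148b replicate 3 to 0.59 without control replicate 3. Without detection flags for these values, whether CCND2 stood above background was not tested.

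CCND3, the gene of cyclin D3, read 3127, 4252, 3468 and 5049 in control and 1985, 3048, 4229 and 4517 with miR-148b. The groups overlapped, and the lowest array of each group was the one of code 1 without a plus mark. The log2 difference was -0.25 (SE 0.29), and that of the dimmer probe was -0.02 (SE 0.34). At the brighter probe it was -0.01 without miR-148b replicate 1 and -0.41 without miR-148b replicate 4.

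CDKN1B, the p27 gene, read 1755, 763, 856 and 1135 in control at its brighter probe. On the miR-148b arrays it read 1226, 1219, 681 and 1023. The highest and the second lowest of the 8 arrays were both controls, and the log2 difference was -0.08 (SE 0.31). Leaving out single arrays moved that difference from -0.24 without control replicate 2 to 0.16 without control replicate 1. Its dimmer probe was at 0.07 (SE 0.26).

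RB1, whose product restrains E2F factors until it is phosphorylated, read 9390.0, 7636, 13290.4 and 9054 in control. With miR-148b it read 13369, 14359, 14481 and 11158. Control replicate 3, the one control with a plus mark, lay within the miR-148b range, so the groups overlapped. The log2 difference was 0.46 (SE 0.20). The dimmer RB1 probe was at 0.68 (SE 0.27), also with overlap, and there control replicate 3 read 196 where the other controls read 105 to 108.

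CCNC, the cyclin C gene, gave 2104, 2162, 2443 and 1919 in control and 3918, 4174, 3256 and 3113 with miR-148b. Every miR-148b array lay above every control array. The group means were 2157 ± 217 and 3615 ± 512 (SD, n = 4 each), which on the log2 scale differed by 0.74 (SE 0.16). CDK8, the kinase that cyclin C activates, read 751, 622, 965 and 701 in control and 1088, 1242, 1089.7 and 802 with miR-148b. Its groups overlapped, and its log2 difference was 0.48 (SE 0.20).

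**Figure D1:**
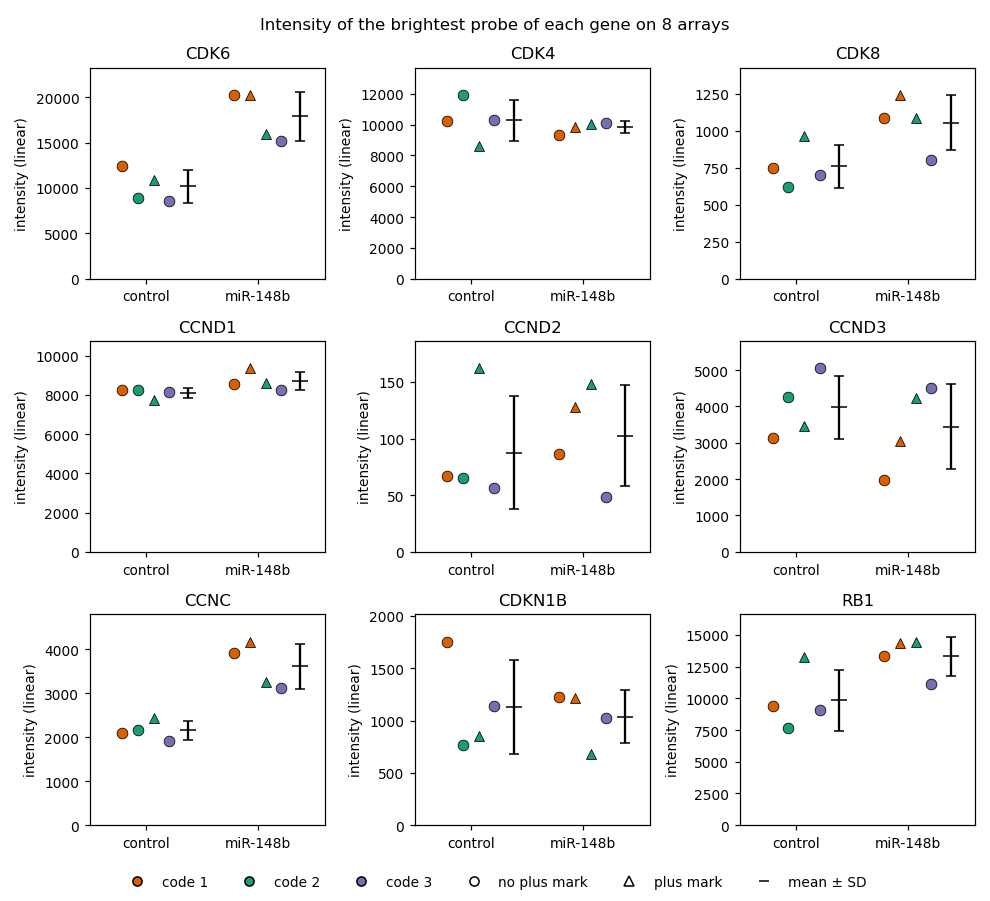
Intensity of the brightest probe of the 9 measured genes (linear y axis from 0) on the control and miR-148b arrays, coloured by code number, with triangles for a plus mark and the mean ± SD (n = 4) beside each group. CDK6 and CCNC separate the groups, CCND2 follows the plus mark, and CCND3 is lowest on code 1.

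In limma's moderated test over the whole table, 0 of 15971 genes, or 0% of them, passed an adjusted p of 0.05 between miR-148b and control. An unadjusted p of 0.05 was passed by 858 genes. With no difference between the groups, a share of about 0.05 of all genes would pass that unadjusted cut. Groups lay apart for 3 of the 9 genes, CDK6, CCND1 and CCNC, all above control, and for none below. Over the 14825 genes with no empty cell, 1.59% lay apart above control and 2.41% below. The members were chosen with this contrast known, so their count is a description.

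The 3 matched pairs of arrays set miR-148b against control at the same code and plus mark. CDK6 was higher with miR-148b in each pair, by log2 differences of 0.70 in code 1, 0.56 in code 2 and 0.83 in code 3. CCNC was higher by 0.90, 0.41 and 0.70 in the same order. RB1 was at 0.51, 0.12 and 0.30, and CDK8 at 0.53, 0.17 and 0.19. At these brightest probes the code 2 pair, the one with plus marks, thus gave the smallest difference for all 4 genes. Replicate 2 sets a miR-148b array of code 1 with a plus mark against a control of code 2 without one. It gave larger differences at the same probes: 1.19 for CDK6, 0.95 for CCNC, 0.91 for RB1 and 1.00 for CDK8. At the dimmer CDK6 probe the matched pairs were at 0.05, 0.72 and 0.66, with the code 2 pair the largest, and replicate 2 was at 0.09. For RB1 and CDK8 the mean of the matched pairs was 0.31 ± 0.19 and 0.30 ± 0.20 (SD, n = 3), against 0.46 and 0.48 over all arrays.

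CDKN1B had matched pairs of the other sign at its brighter probe, with the unmatched replicate 2 again above them. Its brighter probe was lower with miR-148b in each matched pair, by -0.52, -0.33 and -0.15, and higher by 0.68 in the unmatched replicate 2. The mean of the matched pairs was -0.33 ± 0.18 (SD, n = 3), where the group means differed by -0.08. The dimmer CDKN1B probe was at -0.01, -0.58 and 0.07 in the pairs, so the code 2 pair was the one where both probes lay clearly below control. CDK4 had pair differences of -0.14, 0.23 and -0.02, and CCND3 of -0.66, 0.29 and -0.16. Neither kept a sign over the pairs. CCND1 stayed within 0.05, 0.15 and 0.02.

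**Figure D2:**
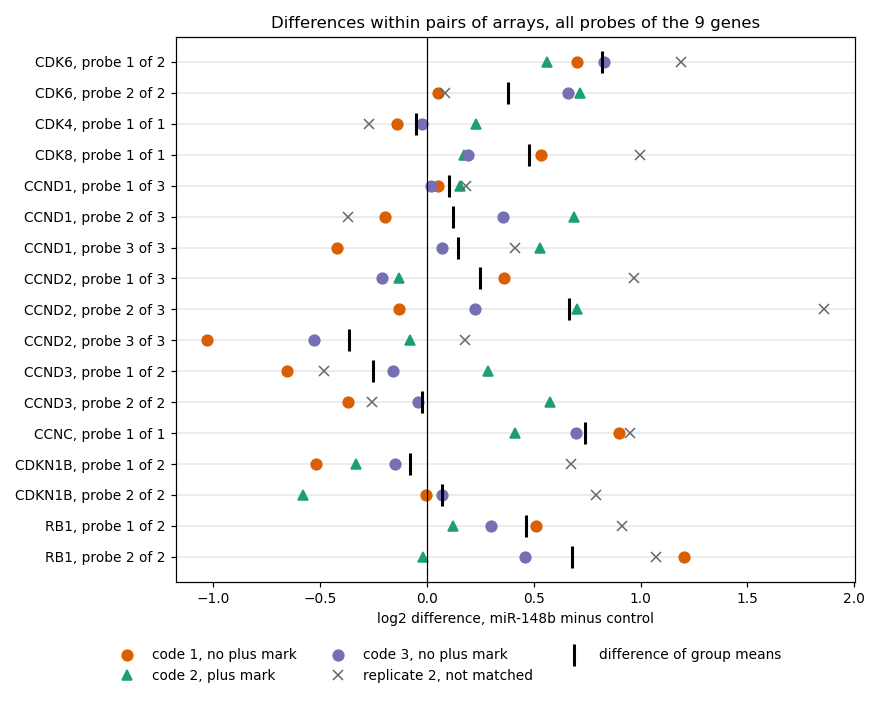
Log2 difference of miR-148b minus control for all 17 probes of the 9 genes, within the 3 matched pairs of arrays (coloured points), in the unmatched replicate 2 (crosses) and between the group means (bars). The bright CDK6 probe and CCNC lie to the right of 0 in every pair, while the brighter CDKN1B probe lies to the left in the 3 matched pairs and to the right in replicate 2.

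A fit with terms for treatment, code 1 and the plus mark separated the 3 as far as 8 arrays allow. In it the treatment term was 0.68 (SE 0.10) for CDK6, 0.64 (SE 0.12) for CCNC, 0.33 (SE 0.13) for RB1 and 0.31 (SE 0.11) for CDK8. CDKN1B was at -0.19 (SE 0.19), CCND3 at -0.08 (SE 0.21), CCND2 at -0.12 (SE 0.20), CCND1 at 0.08 (SE 0.09) and CDK4 at -0.01 (SE 0.12). These terms are a description as well, being the same contrast.

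The code 1 term asked how the 3 code 1 arrays differed from the other 5, in the fit that also held treatment and the plus mark. Code 1 is on replicates 1 and 2 of miR-148b but only on replicate 1 of control. The contrast behind the list thus carries part of any code 1 difference, and the code 1 calls are not independent of how CDK6 and CCNC were chosen. By limma's adjusted p over all genes, CDK6 and CDKN1B were higher on code 1 and CCND3 lower. Those are 2 of 9 genes called higher, where 17.2% of all 15964 genes tested were, and 1 of 9 called lower, where 18.9% were. The members' counts are near those shares.

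CDKN1B, the p27 gene, had a mean of 1399.9 ± 308 on code 1 (SD, n = 3) and 892 ± 186 on the other codes (SD, n = 5). That is a code 1 term of 0.69 (SE 0.19, limma adjusted p = 0.0293). Control replicate 1, of code 1, was the highest array, and the call was lost without it (adjusted p = 0.180), as it was when replicate 2 (0.111) or 3 (0.0877) of miR-148b was left out. The dimmer probe was at 0.46 (SE 0.18), not past the threshold in the fit over probes (adjusted p = 0.104).

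CDK6 had a code 1 term of 0.41 (SE 0.10, limma adjusted p = 0.0199). In control the code 1 array lay 0.49 and 0.54 above the code 2 and code 3 arrays without a plus mark. With miR-148b, code 1 lay 0.42 above code 3 without the mark and 0.34 above code 2 with it. All 4 of these differences between arrays alike in treatment and mark were positive. The control differences share control replicate 1, so the 4 are not independent. The call was lost when control replicate 1 was left out (adjusted p = 0.122), as it was for replicates 3 (0.0708) and 4 (0.0714) of miR-148b, with the mean of both CDK6 probes (0.101), and with no terms for treatment and plus mark (0.159). At the dimmer probe the code 1 term was 0.09 (SE 0.16).

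CCND3 had means of 2720.3 ± 638 on code 1 (SD, n = 3) and 4303 ± 572 on the other codes (SD, n = 5), a code 1 term of -0.66 (SE 0.21). Its limma adjusted p of 0.0497 lay at the threshold. It moved past 0.05 when replicates 1 (0.0950), 2 (0.0801) or 4 (0.0915) of control were left out, and when replicates 3 (0.123) or 4 (0.188) of miR-148b were. Centring each array on its median (0.0574) or taking the mean of both probes (0.0524) did the same. The dimmer CCND3 probe gave a term of -0.77 (SE 0.24), with an adjusted p of 0.0594 over probes.

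The other members did not pass for code 1. CCNC had a term of 0.21 (SE 0.12), CDK8 of 0.24 (SE 0.11), RB1 of 0.11 (SE 0.13), CCND1 of 0.07 (SE 0.09) and CDK4 of -0.06 (SE 0.12). CCND2 had 0.21 (SE 0.20) at its brightest probe, while its second probe was at 1.17 (SE 0.17, limma adjusted p = 0.00377 over probes). That second probe read 117 ± 16.8 on code 1 (SD, n = 3) and 50.2 ± 12.8 on the others (SD, n = 5). Its remaining probe was at 0.32 (SE 0.18, adjusted p = 0.244).

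The plus mark term called 1 of the 9 genes higher, CCND2, and none lower, where 5.87% of 15873 genes tested were called higher and 7.68% lower. CCND2 read 146 ± 17.2 with the mark (SD, n = 3) and 64.6 ± 14.1 without it (SD, n = 5), a term of 1.24 (SE 0.20, limma adjusted p = 0.0159). The difference was 1.31 between the code 2 control arrays and 0.57 between the code 1 miR-148b arrays. Its call was lost when control replicate 3 was left out (adjusted p = 0.0828), as it was for replicates 3 (0.0593) and 4 (0.0869) of miR-148b, and its other probes were at 0.21 and 0.52 without passing. Of the CCND2 probes, the brightest was thus called for the plus mark, the second for code 1 and the remaining probe for neither. CDK8 had a plus mark term of 0.42 (SE 0.11, adjusted p = 0.0541) and RB1 of 0.42 (SE 0.13, adjusted p = 0.0848) in the limma fit. Without miR-148b replicate 1 both passed, CDK8 at 0.50 (adjusted p = 0.0250) and RB1 at 0.50 (0.0462). For RB1 the mark went with 0.80 between the code 2 control arrays and 0.10 between the code 1 miR-148b arrays. The CDK6 probes differed in sign for the mark, at 0.14 (SE 0.10) for the brighter one. The dimmer one was at -0.54 (SE 0.16, limma adjusted p = 0.0696 over probes).

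How many of all genes were called depended on single arrays. The code 1 fit called 5760 genes, 3358 without control replicate 1, and 3549 when replicate 4 of miR-148b was left out. The plus mark fit called 2151 genes. Leaving out control replicates 1, 2, 3 and 4 gave 1399, 1330.0, 697 and 918, and leaving out miR-148b replicates 1, 2, 3 and 4 gave 3697, 679, 577 and 109.

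**Figure D3:**
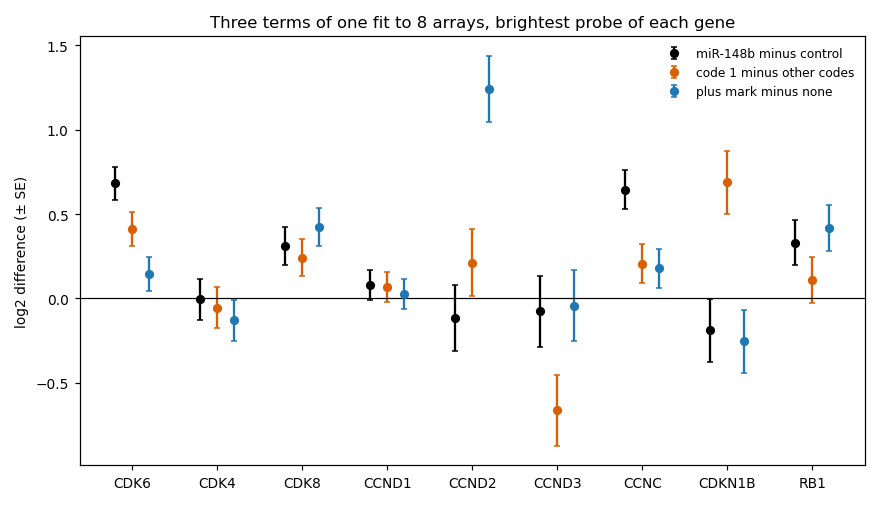
Log2 difference (± SE) for the 9 genes in one fit to 8 arrays, with terms for miR-148b against control (black), code 1 against the other codes (orange) and the plus mark against none (blue). The miR-148b term leads for CDK6 and CCNC, the code 1 term for CDKN1B and CCND3, and the plus mark term for CCND2. The plus mark term is also the largest for RB1 and CDK8, at 0.42 for both against miR-148b terms of 0.33 and 0.31, and CCND1 and CDK4 lie near 0 in all 3.

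Of the other CDK inhibitors, 5 of 6 listed genes were measured. For miR-148b minus control 0 of the 5 passed, with a median log2 difference of -0.56. The miR-148b differences of this and the later lists come from the fit with no terms for code 1 and the plus mark. Both fell on more miR-148b than control arrays, so these differences are not separated from those of code 1 and the mark. CDKN1C, the p57 gene, had means of 4319 ± 1547 in control and 3050.4 ± 1831 with miR-148b, and CDKN1A, the p21 gene, of 2559 ± 900.3 and 1754 ± 879 (SD, n = 4 each). On code 1, CDKN1C read 1705 ± 351 (n = 3) against 4873 ± 588 (n = 5), and CDKN1A 1178 ± 268 against 2743 ± 573 (SD). Of the 5 genes, 3 were called lower on code 1 and 1 higher, beside 18.9% and 17.2% of all genes. The code 1 terms of CDKN1C and CDKN1A were -1.50 and -1.18 (limma adjusted p = 1.22e-04 and 0.00121). CDKN2A, the p16 gene, fell by 0.88 on code 1 as well (adjusted p = 0.00675), and fell by 0.83 with the plus mark (adjusted p = 0.0252). It was the 1 gene of the 5 called for the mark, where 7.68% of all genes were called lower. It read 162 to 701 over the arrays, although the gene is known to be deleted in this line, and whether that signal is its message was not tested. CDKN2D, the p19 gene of the INK4 family, rose on code 1 by 0.48 (adjusted p = 0.0101). On code 1 the p27 gene was thus called higher while the p21 and p57 genes of its family were called lower. The p27 call (limma adjusted p = 0.0293) was lost when some single arrays were left out, as given above.

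Of the 10 genes of E-type cyclins, CDK2 and their activators, 8 lay above control with miR-148b, with a median of 0.19 and 0 past the test. CCNE2, the cyclin E2 gene, was at 0.51 (SE 0.34) and the phosphatase gene CDC25B at -0.50 (SE 0.22). On code 1, 2 genes rose, CDK2 (0.40) and CDC25A (0.35), and 3 fell, CCNE1 (-0.86), SKP2 (-0.75), which targets p27 for destruction, and CCNA2 (-0.41). These counts are near the shares over all genes, 17.2% higher and 18.9% lower. With the plus mark, CDK2 rose by 1.01 (limma adjusted p = 0.00825), the 1 gene of the 10 called higher, where 5.87% of all genes were.

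Among the 16 pocket proteins, E2F and DP factors and their partners, 15 lay above control with miR-148b, with a median of 0.23 and 0 past the test. E2F8 was at 0.52 (SE 0.26) and E2F5 at 0.50 (SE 0.18). The same list had a median of 0.39 with the plus mark, where 3 of 16 genes rose, beside 5.87% of all genes: the pocket protein gene RBL1 (0.67), TFDP1 (0.58) and TFDP2 (0.50). On code 1, E2F4 and LIN52 rose by 0.61 and 0.68, LIN54 fell by 1.05, and the list's median was 0.03. The list of E2F target genes of S phase entry also holds CCNB1 and CDK1, which act at entry into mitosis. Of its 18 measured genes, 12 lay above control with miR-148b, at a median of 0.14 with 0 past the test. CDC6, which loads the replicative helicase, was at 0.48 (SE 0.19) and CDT1, its partner, at 0.40 (SE 0.32). On code 1, 5 of these 18 rose, led by CDT1 (0.87), CDC45 (0.64) and MCM2 (0.57), and 1 fell, POLA1 (-0.40). Over all genes, 17.2% were called higher on code 1 and 18.9% lower. With the plus mark, 1 of these 18 was called higher, MCM3 (0.44), where 5.87% of all genes were.

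Of 5 genes of the Mediator kinase module around CCNC and CDK8, 2 lay above control and 3 below, at a median of -0.36 with 0 past the test. MED12 was at -0.42 (SE 0.39), MED13 at -0.37 (SE 0.27) and MED13L at -0.36 (SE 0.28). CDK19, a close relative of CDK8, was at 0.04 (SE 0.19) and MED12L at 0.17 (SE 0.51). Whether these genes differed from CCNC and CDK8 was not tested. On code 1, 1 of the 5 was called lower and 1 higher: MED13L fell by 0.76 (limma adjusted p = 0.00229), and the dim MED12L rose by 1.44 (adjusted p = 0.00405). With the plus mark 0 passed. For the CDK-activating and transcription kinases, 8 of 12 lay above control at a median of 0.06, among them the cyclin T genes CCNT1 and CCNT2 at 0.41 and 0.40, with 0 past the test. On code 1, 4 of the 12 rose, CCNH (0.54), CCNT1 (0.48) and CDK12 (0.40) first among them, and CCNK fell by 0.38, beside 17.2% of all genes called higher and 18.9% lower. With the plus mark, 1 of the 12 was called lower, CDK11B (-0.76), where 7.68% of all genes were.

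Upstream regulators of D-type cyclins and p27 were balanced for miR-148b, with 9 of 17 above control, a median of 0.02 and 0 past the test. FOXO1, a transcription factor that activates CDKN1B, was at 0.60 (SE 0.54), and TSC2 at -0.39 (SE 0.20). On code 1, FOXO1 read 1947 ± 82.7 (n = 3) against 615 ± 65.0 (n = 5, SD), a term of 1.61 (limma adjusted p = 7.88e-05). In all, 3 of the 17 were called higher on code 1 and 1 lower, beside 17.2% and 18.9% of all genes. MYC, which drives G1 genes, rose on code 1 by 0.71 and EGR1 by 0.59, while CUL1, the scaffold of the ligase that carries SKP2, fell by 0.98. With the plus mark, 2 of the 17 were called higher, FOS (0.48) and FBXO4 (0.56), where 5.87% of all genes were. JUN, an activator of CCND1, was the 1 gene called lower (-0.90), where 7.68% of all genes were. The CCND1 term was 0.03 for the mark and 0.07 for code 1. Whether these regulators acted on CCND1 or CDKN1B in these cells was not tested.

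**Figure D4:**
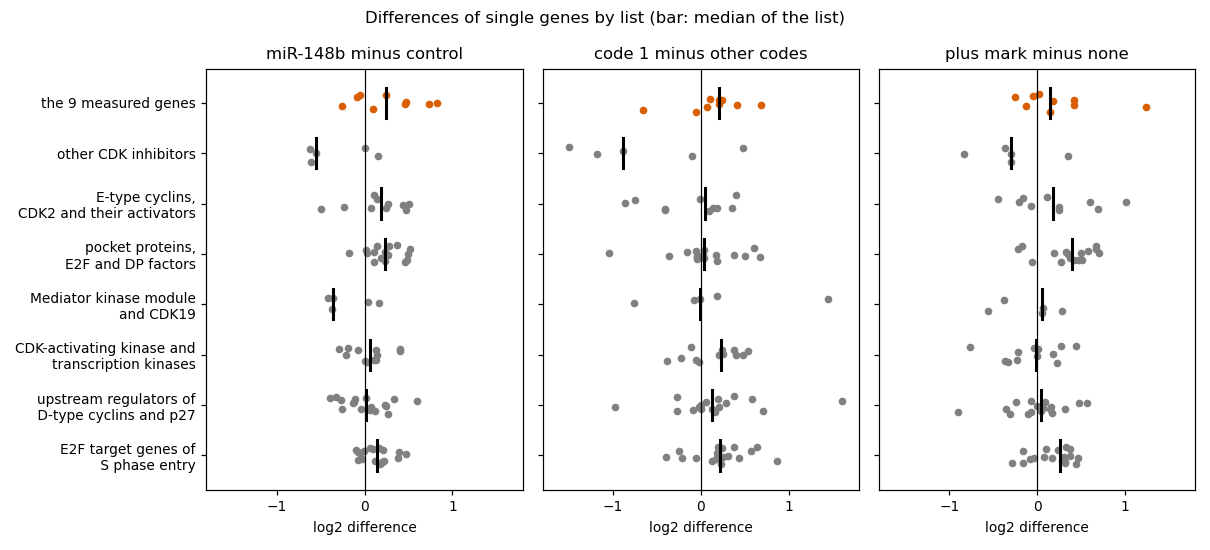
Log2 differences of single genes (points) and list medians (bars) for the 9 measured genes and 7 lists of related genes, in 3 contrasts. The miR-148b differences are from the fit with no other terms, and those of code 1 and the plus mark from the fit of all 3 together. Points of the other CDK inhibitors lie mostly left of 0 on code 1, and those of the pocket protein and E2F list mostly right of 0 for miR-148b and the plus mark.

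Of 10 interferon-induced genes, 9 fell and 1 rose on code 1 in the same limma fit, where 18.9% of all genes were called lower and 17.2% higher, and their summed level ran from 31968 to 36045 on code 1 and from 91122 to 139326 on the other arrays. For miR-148b all 10 lay below control, at a median of -0.65 with 0 past the test, and their summed level ran from 36045 to 139326 in control and from 31968 to 121568 with miR-148b. Of the 4 leukocyte markers measured, the defining gene PTPRC read 7.85 to 17.4 and passed for neither code 1 nor the plus mark. CD79A, a gene of the B cell receptor, read 624 to 2071. It fell by 1.18 with the plus mark (limma adjusted p = 0.00737) and by 0.47 on code 1 (adjusted p = 0.0322), and the other 3 passed for neither. Over all genes, 7.68% were called lower with the mark and 18.9% on code 1. CD79A had a mean of 1399, where CD3E, CD2 and PTPRC had means of 141, 45.4 and 12.2, so it made up most of the list's summed level. That level was 1099 to 2255 in control and 807 to 2252 with miR-148b, and 807 to 1099 with the plus mark against 1361 to 2255 without it. The part of these differences in the members' values was not tested.

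By Pearson correlation of log2 values over the 8 arrays, among 7977 other genes above the median level, the pattern most like that of CDK6 was TRUB1 (r = 0.985), then TLNRD1, HIC2 and ZNF195 (0.982, 0.981 and 0.977). HIC2 read 895 to 1325 in control and 1597 to 2666 with miR-148b. For CCNC the order was MMS22L (0.980), KIAA1143 (0.976), PTX3 (0.975) and ZBTB34 (0.975). PTX3 ran from 11170.3 to 13654 in control and from 19424 to 25572 with miR-148b. CCNC itself was 26th for CDK6, with r = 0.948. These coefficients are descriptions over arrays that share treatment, code and mark, and genes were ranked on the same 8 arrays.

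CDK6 and CCNC are shown with the 250 bases before their outermost RefSeq start, as the members whose groups lay apart by more than a small fold. Both strands were searched for the E2F motifs TTTCCCGC, TTTCGCGC, TTTGCCGC and TTTGGCGC, the SP1 box GGGCGG and the CHR element TTTGAA, and matches stand in capitals. The CDK6 window is chr7:92836574-92836823 and the CCNC window chr6:99568815-99569064, both on the minus strand of GRCh38.p14.
CDK6: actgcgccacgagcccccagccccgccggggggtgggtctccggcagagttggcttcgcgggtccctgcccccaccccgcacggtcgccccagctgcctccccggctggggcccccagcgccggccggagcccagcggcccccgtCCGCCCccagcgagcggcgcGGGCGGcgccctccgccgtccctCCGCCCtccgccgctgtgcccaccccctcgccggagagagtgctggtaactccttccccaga
CCNC: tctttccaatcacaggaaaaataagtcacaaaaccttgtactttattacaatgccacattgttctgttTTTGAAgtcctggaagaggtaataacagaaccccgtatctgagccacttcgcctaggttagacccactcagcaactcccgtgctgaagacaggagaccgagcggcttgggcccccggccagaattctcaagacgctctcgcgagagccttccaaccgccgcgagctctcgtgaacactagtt
The CDK6 window held 3 SP1 boxes and the CCNC window none, and the CCNC window held 1 CHR element. An SP1 box was in 42.6% of 35116 such windows of all genes, a CHR element in 13.3% and an E2F motif in 2.79%. Over 14 windows of 8 members, 8 held an SP1 box, 1 a CHR element and 0 one of these E2F motifs. A match describes letters in a window and is not a bound site.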

How the data were processed

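Human whole-genome Agilent arrays of 1 dye were measured, 4 per group, with Agilent Feature Extraction 10.5.1.1 as image software, per the labels. How background and normalization were handled, and any probe filter, is not given in the sources used here. Values deposited by the authors are probe intensities on a linear scale, and the arrays share their highest value, 243058, as between-array quantile normalization gives. Such values cannot show a shift of all genes. Empty cells (2864 probes) were left empty, and 0 columns were left out. No member had one.

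Tests used log2 of these deposited values (pseudocount 0). Names came from GEO's annotation of the platform, brought up to date with RefSeq (GRCh38.p14): 24790 probes had 1 gene, 27 several and 8629 none listed. limma 3.58.1 (R 4.3.3; lmFit, eBayes, two-sided, Benjamini-Hochberg) was fitted over all genes, 1 probe each, or over all probes where said, and checked on simulated data. The miR-148b fit had no other terms; code 1 and the plus mark were fitted together with treatment. The members and lists were chosen with earlier results of these data known. Genes named from a list were up to 3 per direction with the smallest adjusted p under 0.05 or, failing any, the 2 with the largest difference; likeness named 4 genes for CDK6 and CCNC. Alternatives varied the pseudocount, dim probes, normalization, probe summary, blocks and arrays.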

Additional observations from a re-analysis of the deposited data

Results flagged for a closer look

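CCND2 on control replicate 3 read 162 at its brightest probe, where the other 3 controls read 56.1 to 67.0. The gap to the nearest control took 0.833 of the group's range on the log2 scale, above Dixon's 95% critical value for 4 samples. At the dimmer RB1 probe the same array read 196, where the other 3 controls read 105 to 108, and the gap took 0.959 of the range. Control replicate 3 is the one control array with a plus mark. The 2 miR-148b arrays with that mark read 128 and 148 for CCND2, and 222 and 194 for the dimmer RB1 probe. In all, 34 groups of 4 arrays were examined over 17 probes, and chance alone flags about 1 in 20.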

How the results depend on the processing

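For miR-148b minus control, 0 genes passed an adjusted p of 0.05 in the limma fit and in each alternative run, including each array left out (0 to 0), the code number as a block, terms for code 1 and plus mark, and the arrays without code 1 or without the plus mark. The replicate numbers did not pair all arrays: deviations from the group means correlated at 0.61, -0.50, 0.59 and 0.66 for replicates 1 to 4. With the replicate block 0 genes passed as well, and no call changed. CCNC moved from 0.74 to 0.56 without the code 1 arrays, and CCND1 from 0.10 to 0.03 without the plus arrays. CCND3 went from -0.25 to 0.06 without the code 1 arrays, to -0.44 without the plus arrays, and to -0.12 with the code number as a block. CCND2 went from 0.25 to 0.01 without the code 1 arrays, to 0.05 without the plus arrays, and to -0.12 with terms for code 1 and plus mark. With the code number as a block, CDKN1B went from -0.08 to -0.32. With single arrays left out, CDK6 ran from 0.74 to 0.92, CCNC from 0.67 to 0.81, RB1 from 0.35 to 0.62, CDK8 from 0.39 to 0.60 and CCND1 from 0.07 to 0.12. The code 1 fit called 5760 genes, with 3358 to 6064 when single arrays were left out. The plus mark fit called 2151 genes, with 109 to 3697 when single arrays were left out and 682 with the plus mark alone. The cause of these changes was not tested. The members' calls lost on leaving out an array stand beside them in the report. CCND2 passed for code 1 with the mean of its probes (0.57, limma adjusted p = 0.0109). For the plus mark, CDK8 passed with a pseudocount of 16 (0.0421) and without the dimmer probes (0.0331). No detection flag was available, so dim probes such as those of CCND2 are the least reliable.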
